A study of Rattus norvegicus with 30 samples.

Results

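Adrenomedullin and the receptor genes that respond to it were followed in endothelium-enriched cells of the rat lung. The members are the rows of the deposited table named Adm, Adm2, Calcrl, Ramp1, Ramp2 and Ramp3: 6 of the 30562 rows. They were chosen by name, with earlier results of these data known. All 6 were among the 16171 genes with enough counts to be tested. The 30 libraries came from wild-type rats whose lung cells were sorted with microbeads for CD31, the adhesion protein encoded by Pecam1, 3 weeks after an operation. The Glenn operation connects a vena cava to the pulmonary artery, so that blood from the upper body flows directly into the lung; the controls had sham surgery. Each operation was combined with a diet that held control, deficient or excess vitamin A, which gives 6 groups of 5 libraries. The labels do not say whether each library came from a separate animal, so the p-values measure the spread between these libraries, part of which may be technical.

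Adrenomedullin is a secreted peptide that widens vessels, and it is needed for the growth of blood and lymph vessels. Its receptor is the product of Calcrl, a G protein-coupled receptor that reaches the cell surface only in a pair with a receptor activity-modifying protein (RAMP). The partner sets the ligand: with RAMP1 the pair is the receptor for calcitonin gene-related peptide, and with RAMP2 or RAMP3 it is an adrenomedullin receptor. The pairs signal mainly through a stimulatory G protein and cyclic AMP, and in vessel walls Calcrl and Ramp2 are known as endothelial genes.

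Total estimated counts ran to between 22 and 77.6 M (M, mega) per library (median 40.0 M), so that the most abundant members were counted very precisely and Adm2 poorly. The library names fall in 2 series of numbers, with 22 libraries in series A and 8 in series B, and the fit carried the series as a term. Series B was present in both deficient-diet groups and in the Glenn group on the excess diet. Libraries also split by RT1-CE16, a gene of the rat major histocompatibility complex, with 13 libraries high and 17 low, and by sex, with 13 male and 17 female. The sham group on the excess diet had 0 libraries high in RT1-CE16 and 5 low, and every other group had 2 or 3 high. Replicate 1 of each Glenn group stood apart in earlier results on other genes, and values without these 3 libraries are given for the change averaged over diets. The endothelial genes Pecam1 (median 1103 CPM, counts per M after scaling for library size) and Cdh5 (median 2256 CPM) were abundant in every library. The leukocyte gene Ptprc was low (median 2.42 CPM), while Sftpc of type 2 alveolar cells was at 15062 to 36185 CPM, so the sorted cells also held epithelial RNA.

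The promoters of Adm and Calcrl are shown because the messages of ligand and receptor moved in opposite directions after the operation. RefSeq's GRCr8 promoter table held 5 of the 6 members, and the 250 bases before the annotated start were read 5′ to 3′ on the gene's strand. For Adm these are chr1:174179950-174180199 (plus strand), and for Calcrl chr3:89932617-89932866 (minus strand). Capitals mark the letters of TATAA in Adm, found on both strands as 1 overlapping stretch, and of CACCC in Calcrl.
Adm: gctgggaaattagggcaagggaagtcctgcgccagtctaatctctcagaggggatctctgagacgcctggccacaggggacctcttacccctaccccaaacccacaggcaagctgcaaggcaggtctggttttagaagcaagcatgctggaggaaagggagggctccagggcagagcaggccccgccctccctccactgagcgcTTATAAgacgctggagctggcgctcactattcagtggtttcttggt
Calcrl: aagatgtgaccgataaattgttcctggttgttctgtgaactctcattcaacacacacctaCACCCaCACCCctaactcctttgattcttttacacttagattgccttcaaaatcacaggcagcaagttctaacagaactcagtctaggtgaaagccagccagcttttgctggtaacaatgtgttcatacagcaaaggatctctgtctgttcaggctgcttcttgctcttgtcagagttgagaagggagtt

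Both strands were searched for 5 motifs. These were ACGTG, which is a form of the hypoxia response element core, and its other form, GCGTG. They were also the TATA box core TATAA, the half-site of many nuclear receptors, written AGGTCA, and the core bound by Krüppel-like factors, written CACCC. The TATA box matches of Adm began 46 and 45 bases before the start, and none of the other motifs was in its window. Among 33469 promoters of the same length, 24% held TATAA. Calcrl held CACCC at 190 and 184 bases before its start, a motif that 49.2% of promoters hold, and none of the others. CACCC was also in Adm2 (43 and 38 bases before the start) and in Ramp3 (160 bases). GCGTG, present in 25.9% of promoters, occurred once each in Adm2, Ramp1 and Ramp3. ACGTG (16.6% of promoters) and AGGTCA (14.1%) were in none of the 5 windows. The GC content was 58.8% for Adm and 43.6% for Calcrl, against a median of 51.2% over all promoters. The matches describe these letters only and were not tied to any measurement here.

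After Glenn surgery the message for the ligand Adm was far higher, and those for the receptor Calcrl and its partner Ramp2 were lower, on every diet. Ramp1 was higher on every diet, from a low level. Ramp3 was higher only when the diets were averaged, and Adm2, encoding the related peptide intermedin, was barely detected and did not pass the test. In each of the 3 diets, 4 of the 6 members passed an adjusted p of 0.05 (edgeR), against 24.9% of all genes tested on the control diet, 27.4% on the deficient diet and 21.9% on the excess diet. Averaged over diets, 5 of 6 passed, beside 48.2% of all genes, so the operation moved much of the table. Adm and Ramp1 were called higher in all 3 diets, as were 7.05% of all genes, and Calcrl and Ramp2 lower in all 3, as were 6.46%. The libraries of these 4 members did not overlap on any diet, which held for 17.2%, 19.6% and 16.3% of all genes on the control, deficient and excess diet.

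Adm (ENSRNOG00000027030) was at 11.7, 12.0, 8.13, 10.8 and 7.70 CPM in the 5 sham libraries on the control diet. On the deficient diet the sham libraries had 9.28, 11.7, 6.47, 10.1 and 10.5 CPM. Sham libraries on the excess diet had 15.2, 9.06, 9.51, 9.88 and 10.7 CPM. The sham libraries thus all lay within a narrow low band, with a single higher library on the excess diet. After Glenn surgery the control-diet libraries reached 105, 71.2, 77.8, 128 and 109 CPM. Those on the deficient diet had 69.0, 117, 92.8, 122 and 112 CPM. Those on the excess diet had 56.3, 82.2, 67.7, 76.0 and 78.2 CPM. Every Glenn library was above every sham library.

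The mean of Adm went from 10.2 ± 2.08 CPM after sham to 90.9 ± 22.6 CPM after Glenn surgery (SD, n = 15 each). The fitted log2 change was 3.28 on the control diet (SE 0.20, edgeR adjusted p 1.49e-12), 3.42 on the deficient diet (SE 0.20, edgeR adjusted p 1.08e-12) and 2.68 on the excess diet (SE 0.21, edgeR adjusted p 3.54e-10). Averaged over diets the rise was 8.73-fold (log2 3.13, SE 0.12, edgeR adjusted p 5.9e-18), and 3.21 on the log2 scale without replicate 1 of the Glenn groups. Of all genes tested, 0.575% rose more than Adm. Libraries of the 2 operations did not overlap in 5.83% of all genes over the 15 against 15 libraries. In order, the group means were highest after Glenn surgery on the deficient (102 ± 21.7 CPM), control (98.1 ± 23.3 CPM) and excess diet (72.1 ± 10.3 CPM), followed by sham on the excess (10.9 ± 2.48 CPM), control (10.1 ± 2.04 CPM) and deficient diet (9.59 ± 1.95 CPM) (SD, n = 5 each). The only neighbours in this order that differed beyond their spread were Glenn and sham on the excess diet.

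In RNA from bulk cells, more or fewer cells of a type and more or less RNA per cell cannot be told apart. Markers of other cell types moved with the operation, averaged over diets. All 7 lymphatic endothelial markers rose (summed level 1099 to 2023 CPM in sham and 2494 to 5124 CPM in Glenn libraries), and none was at 0. All 7 mural markers, of pericytes and smooth muscle, rose as well (158 to 319.8 CPM in sham and 457 to 1650.0 CPM in Glenn libraries). Of 6 general capillary markers 4 fell and 1 rose (6169 to 9343 CPM in sham and 2787 to 6455 CPM in Glenn libraries), and of 6 aerocyte markers 5 fell (2130.3 to 3734 CPM in sham and 1015 to 1532 CPM in Glenn libraries). Of 5 general endothelial markers 3 fell and 1 rose (5302 to 7277 CPM in sham and 3930 to 5559 CPM in Glenn libraries). Venous markers gave 3 of 5 lower and 1 higher (1352 to 2281 CPM in sham and 669 to 1898 CPM in Glenn libraries), and arterial markers 4 of 6 higher and 2 lower (683 to 1024 CPM and 598 to 1166 CPM). Of 6 fibroblast markers 5 rose (1261 to 3240.5 CPM in sham and 1790.0 to 4676 CPM in Glenn libraries), and of 7 epithelial markers 4 fell and 1 rose (33868 to 58006 CPM and 24872 to 54967 CPM). Leukocyte markers were low, with 1 of 3 tested lower, the 1 tested erythroid marker rose, and 0 of 4 mesothelial and 0 of 3 neuronal or neuroendocrine markers passed (edgeR). The part of these shifts in the changes of the members was not tested.

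**Figure D1:**
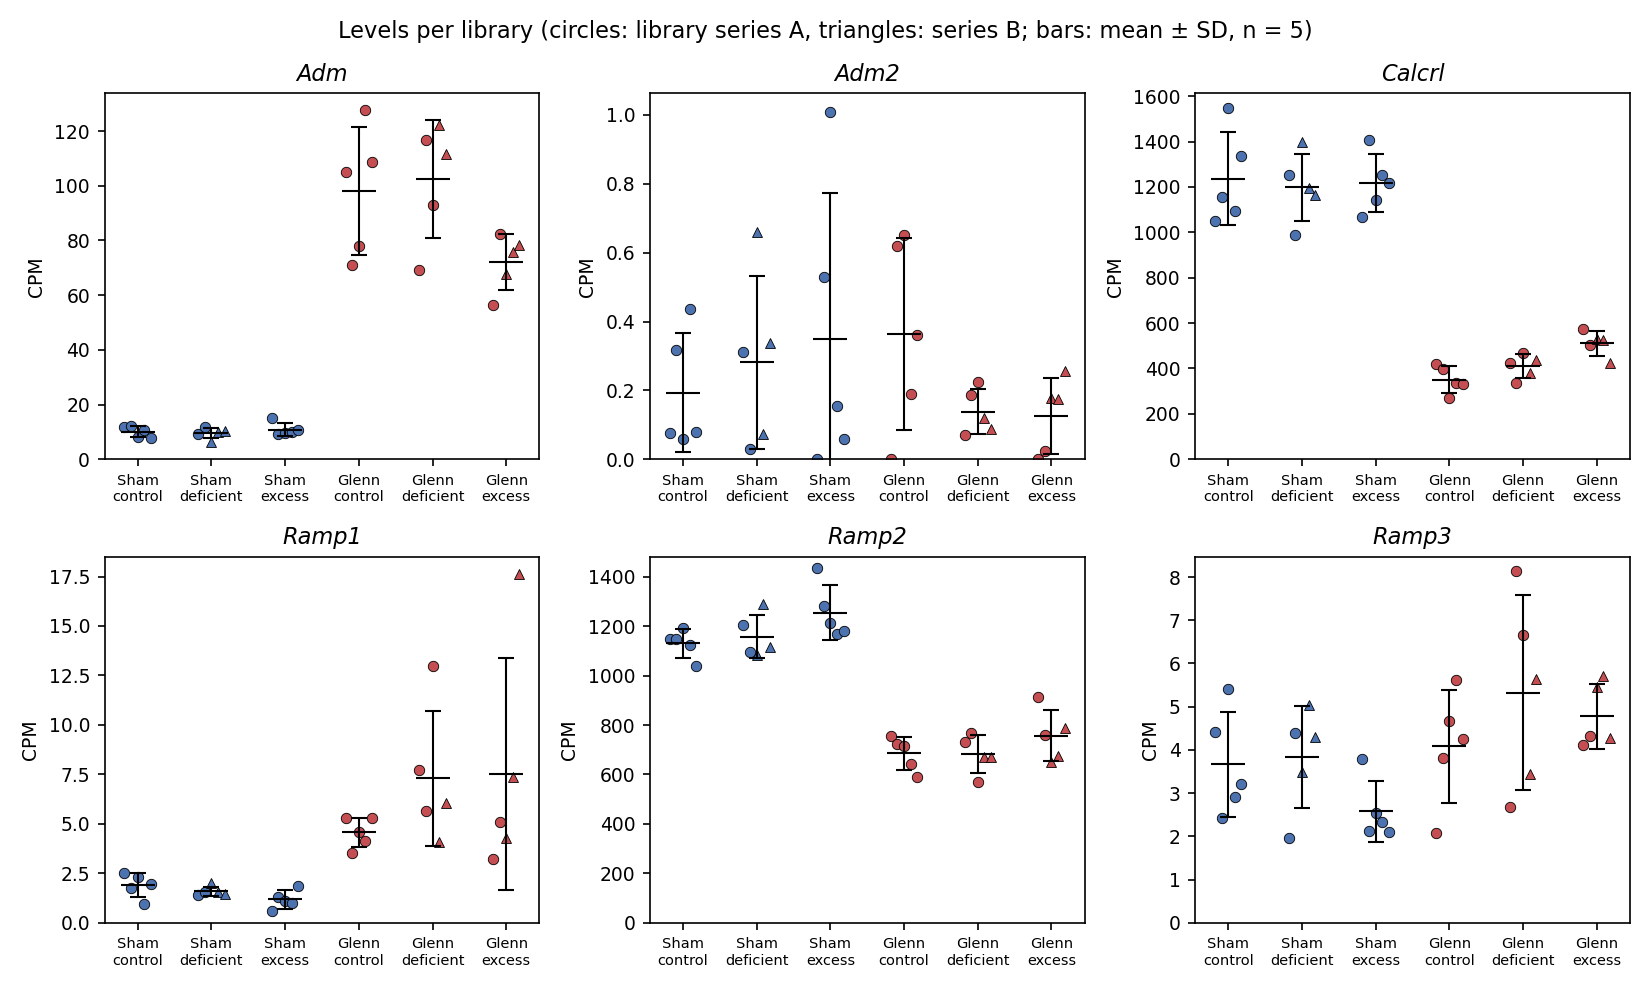
Level of each member (vertical axis, CPM) in every library of the 6 groups (horizontal axis); circles are libraries of series A, triangles those of series B, blue is sham, red is Glenn, and bars are mean ± SD (n = 5). Adm, Calcrl, Ramp1 and Ramp2 separate the operations without overlap, whereas the Ramp3 and Adm2 libraries overlap, except those of Ramp3 on the excess diet.

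Adm2 (ENSRNOG00000029830) was close to the limit of detection, with 0 to 48 counts per library. It had 0 counts in 3 libraries: Glenn control replicate 1, where 0 counts allow up to 0.0786 CPM, sham excess replicate 1 (up to 0.062 CPM) and Glenn excess replicate 1 (up to 0.0623 CPM), from a floor of 3 counts that covers counting error only. Group means ran from 0.126 ± 0.110 CPM after Glenn surgery on the excess diet to 0.364 ± 0.278 CPM after Glenn surgery on the control diet (SD, n = 5 each). Averaged over diets the fitted change was -0.68 on the log2 scale (SE 0.57, edgeR adjusted p 0.339). On the control diet the estimate was 0.89, on the deficient diet -0.57 and on the excess diet -2.36, and all groups overlapped. A change in Adm2 was not detectable at this depth.

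Calcrl (ENSRNOG00000054695), the receptor itself, moved the other way. In sham libraries on the control diet it was at 1049, 1156, 1548, 1094 and 1337 CPM. On the deficient diet sham libraries had 1251, 987, 1396, 1195 and 1164 CPM. On the excess diet they had 1068, 1408, 1141, 1251 and 1218 CPM. The 3 sham groups covered the same range. After Glenn surgery the control-diet libraries had 418, 397, 271, 335 and 331 CPM. The deficient-diet libraries had 426, 336, 469.5, 379 and 437 CPM. The excess-diet libraries had 573, 502, 528, 525 and 425 CPM. Every Glenn library was below every sham library, and the 5 Glenn libraries on the excess diet all lay above the 5 on the control diet.

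Over all diets Calcrl fell to 0.343 of its sham level, from 1217 ± 153 to 423 ± 85.4 CPM (SD, n = 15 each; fitted log2 difference -1.54, SE 0.07, edgeR adjusted p 1.46e-16), and by 1.60 on the log2 scale without replicate 1 of the Glenn groups. The control diet gave -1.82 (SE 0.13, edgeR adjusted p 5.51e-12), on the deficient diet -1.55 (SE 0.13, edgeR adjusted p 1.84e-10) and on the excess diet -1.26 (SE 0.14, edgeR adjusted p 5.45e-08). Of all genes tested, 1.11% fell more. Group means were 1237 ± 206, 1217 ± 128 and 1199 ± 148 CPM after sham surgery on the control, excess and deficient diet, and then 510.5 ± 54.5, 409.5 ± 52.3 and 350.4 ± 58.6 CPM after Glenn surgery on the excess, deficient and control diet (SD, n = 5 each). The 3 sham neighbours in this order did not differ beyond their spread, nor did the deficient diet from either of its neighbours after Glenn surgery.

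Ramp2 (ENSRNOG00000020441), whose protein makes Calcrl the main endothelial adrenomedullin receptor, fell less than Calcrl did. Sham libraries had 1150.1, 1149.9, 1194, 1123 and 1038 CPM on the control diet. They had 1203, 1095, 1083, 1289.9 and 1117 CPM on the deficient diet. The excess-diet sham libraries had 1437, 1281, 1212, 1167 and 1179.9 CPM. Replicate 1 on the excess diet was the highest sham library. Glenn libraries had 757, 725, 714, 644 and 589.7 CPM on the control diet. On the deficient diet they had 733, 769.6, 569.5, 672 and 670.2 CPM. On the excess diet they had 914, 758, 652, 674 and 788 CPM. All Glenn libraries were below all sham libraries.

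Averaged over diets Ramp2 fell to 0.604 of its sham level, from 1181 ± 98.5 to 709 ± 85.7 CPM (SD, n = 15 each; fitted log2 difference -0.73, SE 0.05, edgeR adjusted p 2.04e-12). Without replicate 1 of the Glenn groups it was -0.78. The change was -0.72 on the control diet (SE 0.09, edgeR adjusted p 4.03e-07), -0.78 on the deficient diet (SE 0.09, edgeR adjusted p 1.34e-07) and -0.68 on the excess diet (SE 0.10, edgeR adjusted p 8.1e-06). More genes fell further than Ramp2 than did for Calcrl (5.65% of those tested). In order, the means were 1255 ± 111, 1158 ± 87.6 and 1131 ± 57.9 CPM after sham surgery on the excess, deficient and control diet, and 757 ± 104, 686 ± 67.7 and 683 ± 76.1 CPM after Glenn surgery on the excess, control and deficient diet (SD, n = 5 each), with no diet differing from its neighbour within an operation. The Ramp2 values were not whole numbers in 30 of 30 libraries and those of Ramp1 in 20 of 30, so part of their reads was divided among features by estimate, and their levels are less certain than those of Adm and Calcrl (1 of 30 each).

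Ramp1 (ENSRNOG00000019926), the partner that turns Calcrl into the receptor for calcitonin gene-related peptide, was low throughout, with 30 to 756 counts per library. Sham libraries had 2.52, 1.77, 2.29, 0.970 and 1.98 CPM on the control diet. They had 1.39, 1.55, 2.01, 1.54 and 1.46 CPM on the deficient diet. Those on the excess diet had 0.620, 1.29, 1.09, 1.01 and 1.87 CPM. None of the sham libraries reached the lowest Glenn library. Glenn libraries had 5.29, 3.54, 4.58, 4.12 and 5.28 CPM on the control diet. They had 7.73, 5.64, 13.0, 4.10 and 6.04 CPM on the deficient diet. On the excess diet they had 3.22, 5.07, 4.31, 7.36 and 17.6 CPM. Single libraries, replicate 3 on the deficient and replicate 5 on the excess diet, were far above the rest.

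The rise of Ramp1 was 4.05-fold averaged over diets, from 1.56 ± 0.525 to 6.46 ± 3.90 CPM (SD, n = 15 each; fitted log2 difference 2.02, SE 0.22, edgeR adjusted p 8.61e-09). Per diet the log2 change was 1.26 with control (SE 0.36, edgeR adjusted p 0.0105), 2.27 with deficient (SE 0.39, edgeR adjusted p 4.96e-05) and 2.52 with excess vitamin A (SE 0.44, edgeR adjusted p 7.24e-05). Among series A libraries the excess-diet rise was smaller, at 1.84 (edgeR adjusted p 0.000857). Without replicate 1 of the Glenn groups the averaged change was 2.09. Of all genes tested 1.62% rose more. The means after Glenn surgery were 7.52 ± 5.86, 7.29 ± 3.42 and 4.56 ± 0.756 CPM on the excess, deficient and control diet, and after sham surgery 1.91 ± 0.598, 1.59 ± 0.243 and 1.18 ± 0.459 CPM on the control, deficient and excess diet (SD, n = 5 each), and no diet differed from its neighbour within an operation.

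The libraries with the most Ramp1 also had the highest summed level of the 7 mural markers (Pdgfrb, Rgs5, Cspg4, Acta2, Tagln, Myh11 and Notch3). In Glenn libraries that sum was 511, 651, 746, 457 and 733 CPM on the control diet. It was 825, 625, 1650.0, 535 and 711 CPM on the deficient diet. With excess vitamin A it was 496, 703, 549, 869 and 1037 CPM. Replicate 3 on the deficient and replicate 5 on the excess diet thus led their groups in both. The part of mural RNA in the rise of Ramp1 was not tested.

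**Figure D2:**
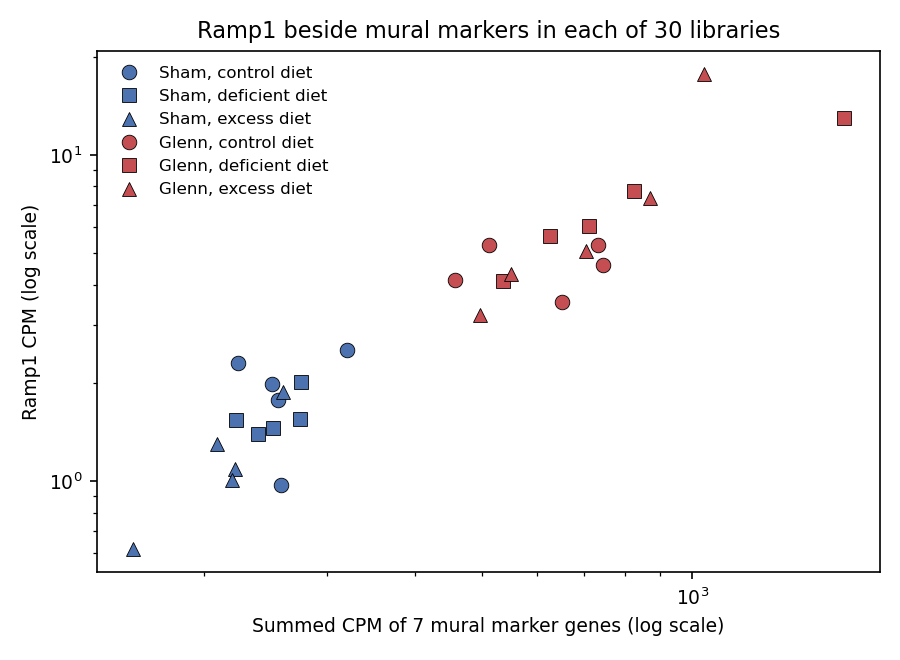
Ramp1 level (vertical axis, CPM, log scale) against the summed level of 7 mural marker genes (horizontal axis, CPM, log scale) in each of the 30 libraries; colour gives the operation and shape the diet. Sham libraries have 0.620 to 2.52 CPM of Ramp1 and Glenn libraries 3.22 to 17.6 CPM, and the 2 libraries with the highest mural sums have the most Ramp1.

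Ramp3 (ENSRNOG00000053766), the other adrenomedullin partner, had 72 to 351 counts per library. Sham libraries ran from 1.96 to 5.40 CPM with a median of 3.20 CPM, and Glenn libraries from 2.07 to 8.15 CPM with a median of 4.32 CPM. The ranges overlapped widely. Averaged over diets, the mean rose from 3.36 ± 1.14 to 4.73 ± 1.54 CPM (SD, n = 15 each; 1.41-fold, log2 change 0.49, SE 0.17, edgeR adjusted p 0.017), and 15% of all genes rose more. Without replicate 1 of the Glenn groups it was 0.63. Without Glenn deficient replicate 2 this was no longer past the threshold (0.40, edgeR adjusted p 0.0501). No single diet passed: the change was 0.16 on the control diet (SE 0.29, edgeR adjusted p 0.75), 0.51 on the deficient diet (SE 0.30, edgeR adjusted p 0.222) and 0.81 on the excess diet (SE 0.33, edgeR adjusted p 0.0765), where the libraries did not overlap. The excess-diet estimate passed the threshold without sham excess replicate 1 (1.00, edgeR adjusted p 0.0368) and with no series term (0.88, edgeR adjusted p 0.022). Group means were 5.32 ± 2.25, 4.77 ± 0.751 and 4.08 ± 1.31 CPM after Glenn surgery on the deficient, excess and control diet, and 3.83 ± 1.18, 3.67 ± 1.22 and 2.58 ± 0.706 CPM after sham surgery on the deficient, control and excess diet (SD, n = 5 each), with no neighbour in this order past the threshold where the pair was tested.

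**Figure D3:**
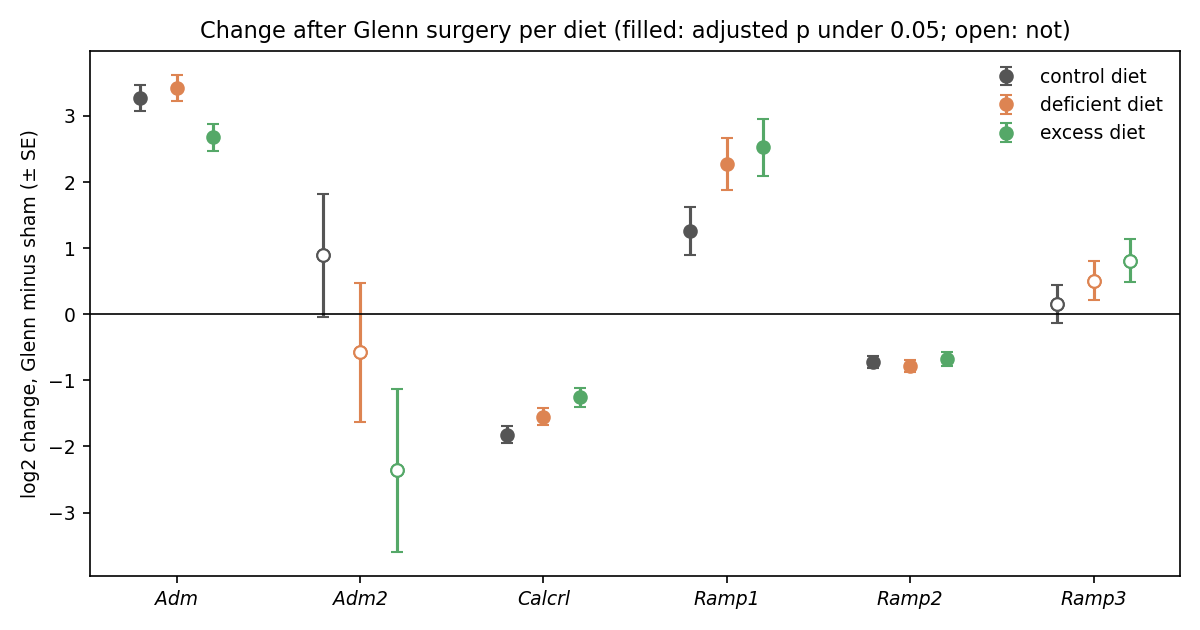
Fitted log2 change after Glenn against sham surgery (vertical axis) of each member (horizontal axis) per diet, with bars of 1 SE; filled points passed an edgeR adjusted p of 0.05 and open points did not. Adm and Ramp1 lie above 0 and Calcrl and Ramp2 below 0 on all 3 diets, while the bars of Adm2 are the widest.

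Messages of pairs of members were compared within libraries, as the difference of their log2(CPM + 1). For genes far above 1 CPM this removes the scaling of the library, but for Ramp1 and Ramp3 only in part. In RNA from bulk cells the messages of a pair may come from different cells. A shift in their ratio is therefore not a measure of receptor pairing within cells. Ratios between genes depend on transcript length, so only their shift between operations was read. The shifts were tested by a two-sided exact permutation test of 5 against 5 libraries, whose smallest possible p is 0.00794, with 15 tests adjusted together. On the control diet the log2 ratio of Ramp1 to Calcrl was -8.75 ± 0.33 after sham and -5.98 ± 0.33 after Glenn surgery (SD, n = 5 each). For the deficient diet the ratio was -8.85 ± 0.16 and -5.71 ± 0.43, and for the excess diet -9.15 ± 0.25 and -6.12 ± 0.98 (SD, n = 5 each). These shifts are 6.83-fold, 8.85-fold and 8.17-fold, with no overlap and the smallest p on each diet (exact permutation p 0.00794, adjusted 0.00916). Ramp1 and Calcrl each separated the operations without overlap, in opposite directions, on every diet. Their ratio could therefore not overlap, so this p was fixed by the single genes and adds no support. The pseudocount of 1 CPM shrinks the values of the low genes Ramp1 and Ramp3.

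The ratio of Ramp2 to Calcrl also rose, since Calcrl fell further than Ramp2. It shifted 2.13-fold on the control diet and 1.72-fold on the deficient diet, without overlap (exact permutation p 0.00794, adjusted 0.00916, for each). On the excess diet the shift was 1.43-fold and the libraries overlapped (exact permutation p 0.0238, adjusted 0.0238). For Ramp3 against Calcrl the log2 shift was 1.93 (control diet), 1.90 (deficient) and 1.95 (excess), with the smallest p on each. Ramp3 alone passed on no single diet (log2 change 0.16, 0.51 and 0.81 in the same order). Calcrl alone changed by -1.82, -1.55 and -1.26, so most of this shift was the fall of Calcrl. On the excess diet both genes separated the operations without overlap, in opposite directions. The p of their ratio there was thus fixed by the single genes and adds no support. Ramp3 against Ramp2, the pair of partners for adrenomedullin, shifted by 0.84 on the control diet with overlapping libraries (exact permutation p 0.0238, adjusted 0.0238), and by 1.11 (deficient) and 1.44 (excess) without overlap. Ramp2 alone changed by -0.72 (control), -0.78 (deficient) and -0.68 (excess), so these shifts include its fall. On the excess diet Ramp3 and Ramp2 also each separated without overlap, in opposite directions, so that ratio could not overlap and adds no support. The ratio of ligand to receptor message, Adm to Calcrl, shifted most: 31.2-fold on the control, 28.4-fold with deficient and 14.8-fold with excess vitamin A, each with the smallest p. That p was likewise fixed by the separation of Adm and Calcrl as single genes. Among series A libraries alone the directions were the same, but the deficient diet (2 against 3 libraries) could reach no exact permutation p under 0.1 and the excess diet (5 against 2) none under 0.0476 before adjustment.

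**Figure D4:**
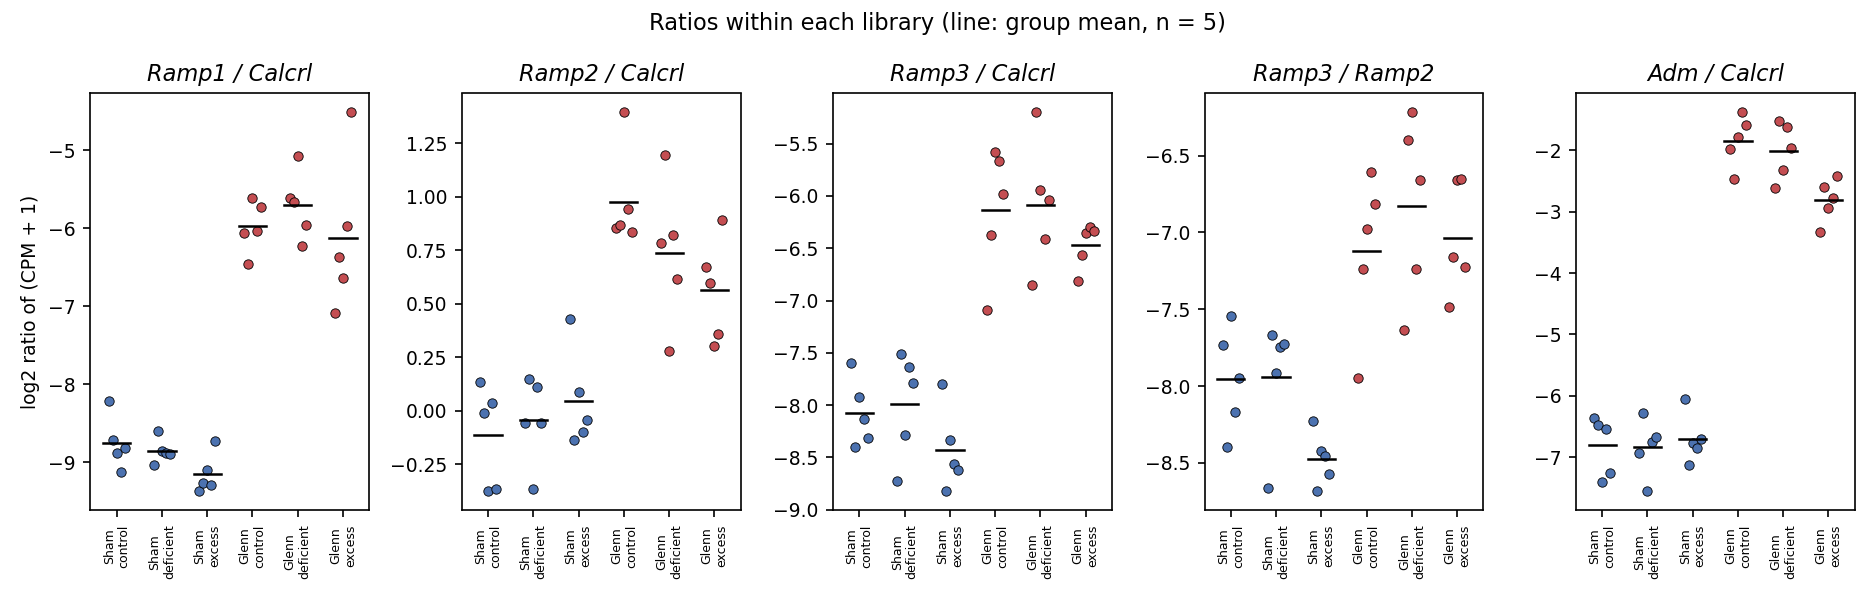
Log2 ratio of a pair of members within each library (vertical axis, log2 of CPM + 1) in the 6 groups (horizontal axis); points are libraries and lines are group means (n = 5). Glenn libraries lie above sham libraries in all 5 ratios, with overlap for Ramp2 to Calcrl on the excess diet and Ramp3 to Ramp2 on the control diet.

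Over the 6 diet comparisons, 1 member passed the test in 1 of them. After sham surgery 0 of 6 members passed in any of the 3 diet comparisons by edgeR, 0 of 6 at an unadjusted p of 0.05 and 0 of 6 by DESeq2. The comparisons called 0% (deficient against control), 0.241% (excess against control) and 0.0124% (excess against deficient) of all genes. After Glenn surgery, 0 of 6 passed between the deficient and control diet (0 unadjusted, 0 by DESeq2) and 0 of 6 between the excess and deficient diet (2 unadjusted, 0 by DESeq2). At the adjusted threshold 0.00618% and 0% of all genes were called in these comparisons. The share of all genes at an unadjusted p of 0.05 was not counted. The unadjusted counts of members here and below thus have no background to be read against.

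Between the excess and control diet after Glenn surgery, 1 of 6 members passed (2 unadjusted, 1 by DESeq2). This was Calcrl, which was 1.45-fold higher with excess than with control vitamin A in the Glenn groups (log2 change 0.54, SE 0.13, edgeR adjusted p 0.0374), with all 5 excess-diet libraries above all 5 on the control diet. This comparison called 1.47% of all genes at the adjusted threshold, and the libraries of 1.2% did not overlap. The call was lost in 7 of the 10 fits that left out 1 library (Glenn control replicate 3, 4 or 5, or Glenn excess replicate 1, 2, 3 or 4; edgeR adjusted p 0.0512 to 0.292), with no series term (0.54, edgeR adjusted p 0.0656), among series A libraries (0.61, edgeR adjusted p 0.0578), with the replicate number as a block (0.51, edgeR adjusted p 0.159) and when only the 2 groups were fitted (0.59, edgeR adjusted p 0.132). The call was kept in the other 8 of 19 alternatives: in 3 of those 10 fits, and with RT1-CE16 level, sex, DESeq2 size factors, no filter or DESeq2 (adjusted p 0.00833 to 0.0457). General capillary markers summed to 3408 ± 651 CPM in the Glenn control and 4631 ± 1092 CPM in the Glenn excess group (SD, n = 5 each), with 1 of 6 called higher. The latter mean holds replicate 1 at 6455 CPM, against 3695 to 4779.7 CPM in the other libraries. Venous markers, 3 of 5 called higher, summed to 979 ± 301 and 1362 ± 344 CPM (SD, n = 5 each). In the remaining lists 1 arterial and 1 mural marker were called higher and 1 epithelial and 1 mesothelial marker lower. The part of these in the difference was not tested. Against the deficient diet, Calcrl on the excess diet did not pass (0.32, SE 0.12, edgeR adjusted p 0.914), nor did the deficient against the control diet (0.22, SE 0.13, edgeR adjusted p 0.608).

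Adm had the opposite sign. Its Glenn mean of 72.1 ± 10.3 CPM with excess and 98.1 ± 23.3 CPM with control vitamin A (SD, n = 5 each) gave a difference that did not pass the test (-0.49, SE 0.20, edgeR adjusted p 0.244), nor did that from the deficient diet (-0.52, SE 0.18, edgeR adjusted p 0.797). Whether the effect of surgery differed between diets was tested as an interaction. None of the 6 members passed (edgeR adjusted p 0.758 for Calcrl, 0.846 for Adm, 0.878 for Ramp1, 0.95 for Adm2 and 0.999 for both Ramp2 and Ramp3). At an unadjusted p of 0.05, 2 members passed, Calcrl (p 0.0155) and Adm (p 0.0346), and 0 did so after adjustment by DESeq2. The interaction called 0.00618% of all genes at the adjusted threshold, which is no background for the unadjusted count.

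The wider pathway was read from a list of 30 genes for other calcitonin-family peptides, peptide processing and removal, and cyclic AMP signalling. Of the 29 tested, 6 rose, 9 fell and 14 did not pass the test averaged over diets, so 15 of 29 were called beside 48.2% of all genes, a share near the background. The genes below are given for their own values. The median log2 change of the 29 was -0.05, beside -0.01 over all genes. The genes for related peptides were near the detection limit or low, with sham and Glenn means of 0.375 and 0.303 CPM for Calca, which encodes calcitonin and calcitonin gene-related peptide, and of 2.33 and 2.23 CPM for Iapp, which encodes amylin. Neither passed the test, and Calcb and the calcitonin receptor gene Calcr had too few counts to be tested.

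Genes that make, trap or break down the peptide went different ways. Pam, the enzyme that amidates adrenomedullin into its active form, rose from 312 ± 42.1 to 511 ± 63.1 CPM (SD, n = 15 each; fitted log2 difference 0.71, SE 0.06, edgeR adjusted p 1.87e-10). Gpr182, an endothelial receptor that was once proposed to bind adrenomedullin and is known to take up chemokines, fell from 347 ± 40.3 to 175 ± 42.3 CPM (SD, n = 15 each; -0.96, SE 0.07, edgeR adjusted p 8.94e-12). Mme, the membrane peptidase neprilysin, fell from 109 ± 23.7 to 62.8 ± 15.7 CPM (SD, n = 15 each; -0.76, SE 0.13, edgeR adjusted p 1.46e-05). Ackr3, a decoy receptor that takes up adrenomedullin, was at 988 ± 97.4 and 1038 ± 146 CPM (SD, n = 15 each) and did not pass (0.07, SE 0.06, edgeR adjusted p 0.347).

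Among genes of the cyclic AMP branch, the strongest rise was that of Adcy3, an adenylate cyclase, from 6.51 ± 1.95 to 23.9 ± 10.3 CPM (SD, n = 15 each; 1.90, SE 0.18, edgeR adjusted p 1.31e-09). Prkar1a, a regulatory subunit of protein kinase A, rose slightly (0.29, SE 0.04, edgeR adjusted p 9.36e-08), as did Gnas, the stimulatory G protein subunit (0.18, SE 0.04, edgeR adjusted p 0.000521). The phosphodiesterase genes Pde4b and Pde3a, whose products break down cyclic AMP, fell. Pde4b went from 169.8 ± 21.2 to 95.5 ± 11.4 CPM (SD, n = 15 each; -0.83, SE 0.06, edgeR adjusted p 3.65e-13) and Pde3a from 29.7 ± 3.84 to 18.8 ± 2.37 CPM (SD, n = 15 each; -0.68, SE 0.07, edgeR adjusted p 2.43e-09). Their common sign is a description of 2 genes, and Pde4d and Pde3b of the same family did not pass the test.

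**Figure D5:**
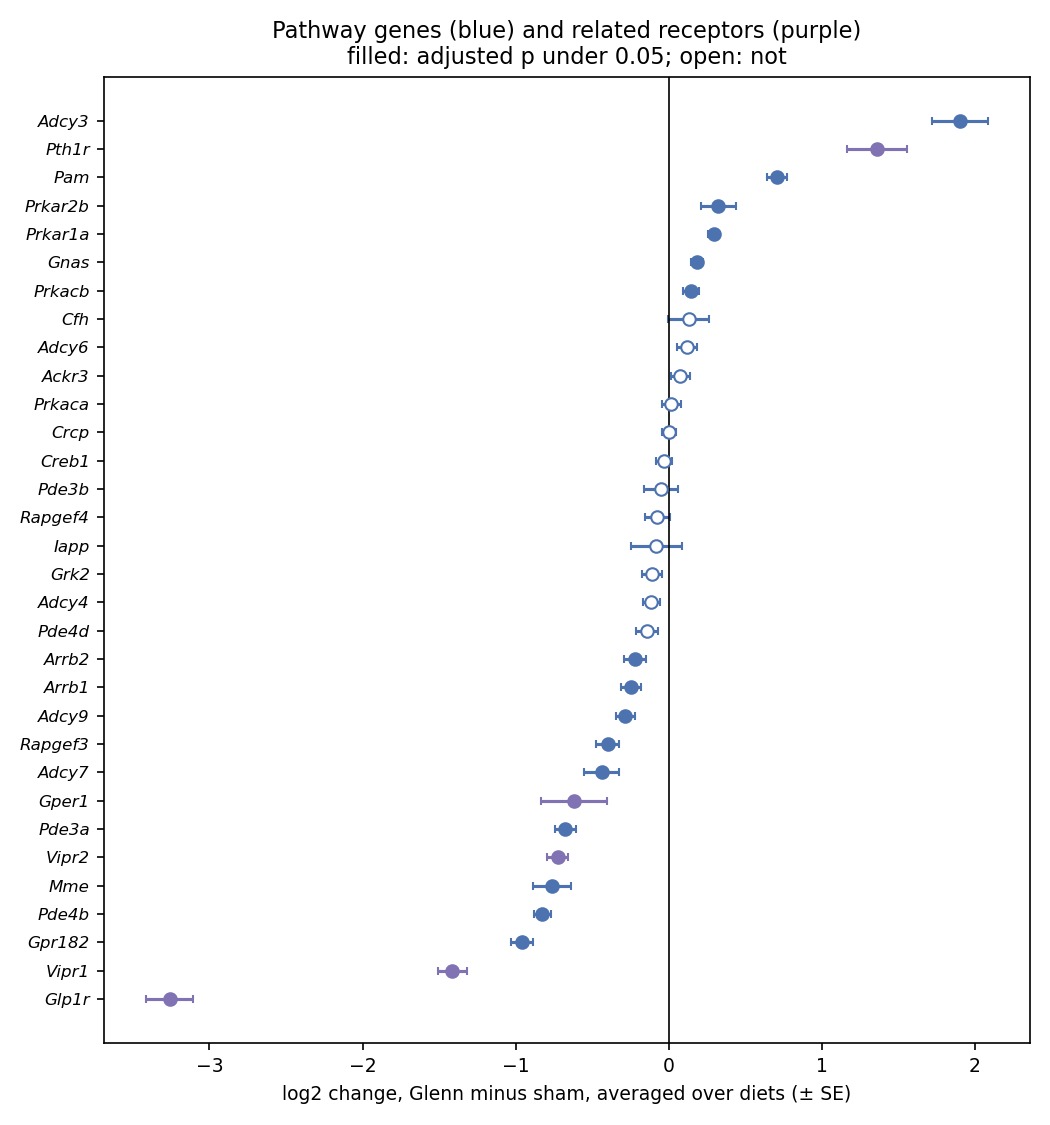
Fitted log2 change after Glenn against sham surgery averaged over diets, with bars of 1 SE, for the tested genes of the wider pathway (blue) and the related receptors (purple) with a mean of at least 1 CPM; filled points passed an edgeR adjusted p of 0.05. Adcy3, Pth1r and Pam stand to the positive side, and Glp1r, Vipr1, Gpr182 and Pde4b to the negative side.

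Other receptors that pair with RAMPs or belong to the same class were listed as 11 genes, of which 8 could be tested. Averaged over diets 2 rose, 4 fell and 2 did not pass, which is 6 of 8 called beside 48.2% of all genes. Glp1r, the receptor for glucagon-like peptide, fell further than Calcrl, from 390.1 ± 78.1 to 40.7 ± 13.6 CPM without overlap (SD, n = 15 each; -3.26, SE 0.15, edgeR adjusted p 8.59e-16). Both receptors for vasoactive intestinal peptide fell: Vipr1 from 424 ± 62.2 to 154 ± 52.6 CPM (SD, n = 15 each; -1.41, SE 0.09, edgeR adjusted p 6.7e-13) and Vipr2 from 25.6 ± 3.01 to 15.3 ± 2.04 CPM (SD, n = 15 each; -0.72, SE 0.07, edgeR adjusted p 3.44e-10). The estrogen receptor Gper1, reported to associate with RAMP3, fell as well (-0.62, SE 0.22, edgeR adjusted p 0.0203). Pth1r, for parathyroid hormone, rose from 2.42 ± 0.884 to 6.11 ± 2.51 CPM (SD, n = 15 each; 1.36, SE 0.20, edgeR adjusted p 1.25e-06). Crhr2, the other gene that rose, had a mean under 1 CPM.

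Adm is a known hypoxia-induced gene, and a list of 14 others of that kind was read beside it. Of the 13 tested, 3 rose, 3 fell and 7 did not pass averaged over diets, so 6 of 13 were called beside 48.2% of all genes, a share near the background. Ndrg1, a stress-response gene, rose from 38.0 ± 9.54 to 108 ± 13.5 CPM (SD, n = 15 each; 1.52, SE 0.09, edgeR adjusted p 1.47e-13) and Egln3, an oxygen-sensing hydroxylase, from 5.86 ± 1.34 to 10.2 ± 2.13 CPM (SD, n = 15 each; 0.80, SE 0.11, edgeR adjusted p 8.37e-07). Vegfa, the vascular growth factor, fell from 1316 ± 196 to 388 ± 56.1 CPM (SD, n = 15 each; -1.77, SE 0.06, edgeR adjusted p 7.15e-19) and Bnip3, a mitochondrial stress gene, fell slightly (-0.24, SE 0.05, edgeR adjusted p 0.00043).

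The genes whose levels ran most alike with each member were ranked by Pearson's r of log2(CPM + 1) over the 30 libraries, over 12719 genes that averaged 1 CPM or more, as a description. All points share the 2 operations, which set most of the spread. For Adm they were Smad1 (0.99), Arhgap18 (0.988) and Vash1 (0.981), and for Calcrl Bmpr2 (0.986), Mmp16 (0.984) and Lrrn1 (0.981). For Ramp2 they were Icam2 (0.974), Syngr2 (0.969) and Bst1 (0.968), for Ramp1 Atp1b2 (0.95), Olfml2b (0.949) and Acta2 (0.945), and for Ramp3 Cttn (0.722), Lpar1 (0.716) and Actr1b (0.713). With group means removed, which leaves the spread between libraries of 1 group, Adm was led by Arhgap18 (0.736), Ccdc30 (0.707) and Smad1 (0.707), and Calcrl by Rlf (0.825), Mbtps2 (0.825) and Bmpr2 (0.822). Ramp2 was led by Fam110d (0.877), Phc2 (0.846) and Git1 (0.844), and Ramp3 by Rab30 (0.688), Kcnd3 (0.669) and Mill1 (0.666). Ramp1 was led by Atp1b2 (0.795), Cox4i2 (0.791) and Pdgfrb (0.785), the last being a marker of the mural list. Between Adm and Calcrl the correlation of these deviations was -0.533, the strongest among pairs of members with a mean of at least 1 CPM. The other pairs ran from -0.278 (Ramp1 with Ramp2) to 0.26 (Adm with Ramp3), with Calcrl and Ramp2 at -0.0755.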

How the data were processed

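RNA from CD31-sorted rat lung cells was extracted with a PureLink kit and made into libraries with a SMART-Seq low-input kit, per the labels' protocols. Values in the deposited table are estimated counts of genes, 13.6% of them not whole. Per the submitters' processing notes, the builds were mRatBN7.2 and rn7 and the tools FastQC, Trim Galore, Picard, STAR and Salmon; versions, annotation release and strand are not given in the sources used here. All sample columns were used.

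The members and gene lists were chosen with earlier results of these data known. Estimated counts were rounded, filtered with filterByExpr (minimum count 10, minimum total 15) and scaled by TMM (factors 0.938 to 1.06) in edgeR 4.0.16 with R 4.3.3. A quasi-likelihood fit held all 30 libraries, with a mean per group and an additive term for the library series; p-values were adjusted by Benjamini-Hochberg over 16171 genes, with 0.05 as the threshold. CPM are TMM-scaled counts per M (mega). SE is the log2 change over √F. Ratios were tested by exact permutation. Of the lists, those with a mean of at least 1 CPM were named when among the 4 smallest adjusted p of either direction, averaged over diets (2 for hypoxia-induced genes), and Pam, Ackr3, Gpr182 and Mme always; Calca, Iapp and Crhr2 were named after their values were seen, as were Pde4d and Pde3b. Alternatives were no series term, series A alone, RT1-CE16 level (above 100 CPM) or sex (Ddx3y above 10 CPM) as terms, DESeq2 size factors, DESeq2 1.42.0, no filter, a replicate block, only the groups compared, other pseudocounts and leaving out each library; leaving out replicate 1 of all Glenn groups together was chosen after seeing the data. Same-numbered libraries deviated together in all 5 pairs for the deficient against the control diet after sham surgery alone (correlations 0.139 to 0.258), where the block changed no call. The edgeR fit was tested on simulated counts, with changes set in the Glenn control group only and no series effect. The other steps were not tested on simulated data. Figures were drawn with matplotlib 3.10.9. RefSeq's GRCr8 tables gave the promoters.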

Additional observations from a re-analysis of the deposited data

Results flagged for a closer look

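Within the 6 groups of 5 libraries, 36 sets of values (6 members in 6 groups) were searched for a single library far from its group, by the gap to its nearest neighbour as a share of the range (Dixon's limit for 5 libraries, 0.71). In 4 sets a library stood apart, where chance gives about 1 in 20, or 1.8 sets. Adm in sham excess replicate 1 was at 15.2 CPM against 9.06 to 10.7 CPM in the other libraries (gap share 0.736), and Ramp3 in the same library was at 3.80 CPM against 2.11 to 2.53 CPM (0.747). Ramp1 in sham deficient replicate 3 was at 2.01 CPM against 1.39 to 1.55 CPM (0.753). Ramp1 in Glenn excess replicate 5 was at 17.6 CPM against 3.22 to 7.36 CPM (0.713), in the library with the highest mural marker sum of its group (1037 CPM). Without that library the rise of Ramp1 on the excess diet was 2.13 on the log2 scale and still past the threshold.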

How the results depend on the processing

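Over the 4 surgery comparisons, Adm, Calcrl, Ramp1 and Ramp2 kept call and direction in 96 of 96 alternative fits each, with averaged changes of 3.04 to 3.21, -1.60 to -1.47, 1.86 to 2.12 and -0.78 to -0.67 on the log2 scale. Ramp3 did so in 93 of 96, and the other 3 are given in the report. Adm2, limited by counts, kept its sign in 93 of 94 and turned on the deficient diet without sham deficient replicate 1, where leaving out single libraries gave -0.93 to 0.11; the cause was not tested. Between the excess and control diet after Glenn surgery, the count of members called went from 1 to 0 with no series term, with series A alone and with only the 2 groups compared, and ranged from 0 to 1 when single libraries were left out; the cause was not tested. With the replicate number as a block it was also 0, and the block changed no other call of a member; for this comparison 4 of 5 same-numbered pairs had correlated deviations over 0.1 (up to 0.238), short of the rule that all do, and whether they share a source was not tested. With series A alone the ratio tests on the deficient and excess diet could not pass the adjusted threshold, since their smallest exact permutation p is 0.1 and 0.0476, so these values say nothing about stability: Ramp1 to Calcrl at 3.37 (deficient) and 2.42 (excess), Ramp2 to Calcrl at 0.70 and 0.59, Ramp3 to Calcrl at 2.12 and 1.74, Ramp3 to Ramp2 at 1.42 and 1.15, and Adm to Calcrl at 4.46 and 3.74. Ramp3 to Ramp2 on the control diet, with the same libraries and shift (0.84), lost its call only through the adjustment over these tests (all log2 shifts; adjusted exact permutation p 0.0714 to 0.2). Counts over all genes moved by more than 1.5 times in some settings: 4423 to 2553 (series A) for surgery on the deficient diet, 3549 to 2270 (series A) and 1960 (2 groups) on the excess diet, and 237 to 19 (no series term), 78 (RT1-CE16 level), 34 (block), 10 (2 groups) and 531 (DESeq2) for the excess against the control diet after Glenn surgery. Leaving out single libraries took that count to between 2 and 557. Over all settings the interaction count (1) ran from 0 to 35, and the other diet counts from 0 to 210 against 39 (excess against control after sham), 0 to 12 against 2 (excess against deficient after sham), 0 to 19 against 0 (deficient against control after sham), 1 to 63 against 1 (deficient against control after Glenn) and 0 to 6 against 0 (excess against deficient after Glenn).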
